A study of Mus musculus with 6 samples.

Results

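The miR-30 family is a set of microRNAs that share the start of their 5p arms. Its 8 members here are the guide arms miR-30a-5p, miR-30b-5p, miR-30c-5p, miR-30d-5p and miR-30e-5p and the passenger arms miR-30a-3p, miR-30c-2-3p and miR-30e-3p. They were chosen by name, with no use of their values, from 1281 mature miRNA entries, 507 of them with a read somewhere in the series. All 8 members had reads in every library. The samples were serum of male mice, 10 to 12 weeks old, that carried a sciatic nerve graft from a Balb/c donor. FK506 (tacrolimus, which inhibits calcineurin and so T cell activation) was injected under the skin at 1 mg/kg per day in the FK506 groups, sampled at days 3, 7 and 14. The untreated groups carried the same graft without FK506 and were sampled at the same days. The sample labels and the account of randomization name C57BL/6 hosts, while the account of the surgery names Balb/c ones, so the host strain is uncertain. Every group is represented by 1 library. For each group and day 3 animals are stated, but whether their serum was pooled was not given in the sources used here. Serum without a graft is not analysed here.

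A miRNA hairpin is cut into a duplex, of which the guide arm is usually kept by Argonaute and the passenger arm usually degraded. Bases 2 to 8 of the kept arm, the seed, pair with target mRNAs. The miR-30 guide arms are broadly expressed, with known roles in kidney, heart and vessel biology. Among their known targets are the EMT factor Snai1, the autophagy gene BECN1 (in human cells) and the Notch ligand Dll4 (in zebrafish and human endothelium). The passenger arms carry other seeds. In human glioma cells miR-30e-3p targets the NF-kB inhibitor IkBa, and miR-30c-2-3p is an NF-kB-induced regulator of the stress factor XBP1.

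Mature sequences of 6 of the 8 members were matched in RefSeq's GRCm38.p6 table. They are shown because the seed sets the groups within the family and because single bases separate the entries. Capitals mark the seed, bases 2 to 8.
miR-30a-5p: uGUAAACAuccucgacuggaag
miR-30e-5p: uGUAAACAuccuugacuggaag
miR-30c-5p: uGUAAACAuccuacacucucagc
miR-30a-3p: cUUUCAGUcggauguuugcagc
miR-30e-3p: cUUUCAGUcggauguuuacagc
miR-30c-2-3p: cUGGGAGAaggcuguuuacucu
The 3 guide arms shared the seed GUAAACA. The passenger arms of miR-30a and miR-30e shared UUUCAGU, and miR-30c-2-3p carried UGGGAGA.

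Counted from 1 at the 5′ end, miR-30e-5p differs from miR-30a-5p by the single substitution C13U. The substitution G18A is the single difference of miR-30e-3p from miR-30a-3p, so their first 17 bases are identical. Reads of 15 nt or more were counted, per the labels' protocols, and a read that ends before position 18 fits both 3p entries. Their counts are therefore uncertain against each other. Between miR-30a-5p and miR-30c-5p there are 5 substitutions, C13A, G14C, G18C, G19U and A20C.

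The hairpins of the matched members lie in 2 places. Mir30a (chr1:23272269-23272339, plus strand, GRCm38.p6) is annotated in GENCODE vM21 outside any other gene, and Mir30c-2 (chr1:23291701-23291784, plus strand) lies 19361 bases further on, in an exon of the long noncoding RNA gene Gm27028. Mir30c-1 (chr4:120769534-120769622) and Mir30e (chr4:120772606-120772697), both on the minus strand and 2983 bases apart, lie in an intron of Nfyc, which encodes a subunit of the transcription factor NF-Y. The mature miR-30c-5p comes from both Mir30c hairpins, 1 at each place. The hairpins whose arm ratios differed most by treatment are shown with both mature arms in capitals.
Mir30e: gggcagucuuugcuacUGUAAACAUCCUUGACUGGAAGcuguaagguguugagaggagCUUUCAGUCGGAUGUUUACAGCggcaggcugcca
Mir30c-2: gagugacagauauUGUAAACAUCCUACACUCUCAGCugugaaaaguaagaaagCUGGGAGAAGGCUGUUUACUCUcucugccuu

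Library totals were 4897727 to 5806228 counts, and 93.8% to 98.0% of them fell on the red cell miRNA miR-486-5p and its inseparable partner miR-3107-5p. The remaining depth was 104574, 103058 and 359061 reads at days 3, 7 and 14 with FK506, and 160163, 298117 and 158423 reads without it. The untreated day 7 library stood apart: the 13 listed neuron and glia miRNAs summed to 12259 reads there and to 121 to 558 reads in each of the other 5 libraries. In each of those 5, 7 to 11 of the 13 were at 0. Red cell lysis, read as miR-451a over miR-23a-3p, ran from 13.7 to 26.4 in FK506 serum and from 14.5 to 43.6 in untreated serum. The 43.6 was in the untreated day 7 library and rested on 523 over 12 reads, the lowest count of either miRNA. The red cell list apart from miR-486-5p also had its lowest share of the remaining reads there, 0.209%. Other marker lists differed between the treatment groups, with 1 library for each group. Of the 4 platelet and myeloid miRNAs none was at 0 in any library. With FK506 they took 0.833%, 0.942% and 1.28% of the remaining reads at days 3, 7 and 14. Without it they took 0.443%, 0.163% and 0.448%. Most of their reads in every library were miR-142-5p, such as 4240 of 4595 at FK506 day 14. The 3 muscle miRNAs, of which up to 2 were at 0 in a library, took 0.592% to 1.25% with FK506 and 0.124% to 0.590% without it. Only miR-133a-3p among them reached 50 reads in a library, and it held 618 of the 619 reads at FK506 day 3. The 10 let-7 entries, of which 1 or 2 were at 0, took 6.30% to 11.9% with FK506 and 17.3% to 19.5% without it. Members of this list differed in direction. At day 3 let-7b-5p had 486 reads with FK506 and 268 without it, and let-7g-5p had 881 and 711. Those counts came from fewer remaining reads with FK506. On the other side let-7i-5p had 2961 and 9349 reads, let-7f-5p 2498 and 8530, and let-7a-5p 1115 and 4227. The day 3 counts of let-7c-5p were 4206 and 4566, and those of let-7d-5p 317 and 766. Of the 6 marker lists, the platelet and myeloid, muscle and let-7 lists did not overlap between the groups. The muscle groups came closest, at 0.592% with FK506 and 0.590% without it. How many of all miRNAs lack overlap on this measure was not computed. The part of any of these values in the results below was not tested. In serum, release from fewer cells and release of less RNA per cell cannot be told apart.

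The family took 4.19%, 5.03% and 8.99% of the reads outside the miR-486-5p and miR-3107-5p pair at days 3, 7 and 14 with FK506. Its share was 7.55%, 3.56% and 7.57% without FK506. The share was lowest in the untreated day 7 library and highest in the FK506 day 14 library. Those of FK506 days 3 and 7 lay between the untreated day 7 share and the other untreated shares, so the groups overlapped. Exact 95% binomial intervals reached at most 0.135 percentage points to either side of these shares and cover counting error only, since reads carried no molecular identifiers. Without miR-181a-5p, which was abundant in the untreated day 7 library, the untreated day 7 share was 5.21%, above the 4.29% and 5.15% of FK506 days 3 and 7, so the lowest library was then FK506 day 3.

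The guide arms gave the same order in all 6 libraries: miR-30a-5p, then miR-30d-5p, miR-30e-5p, miR-30c-5p and miR-30b-5p. The most abundant member, miR-30a-5p, had 2072, 2652 and 21814 reads in FK506 serum at days 3, 7 and 14, and 7716, 6648 and 7789 reads in untreated serum. Among all entries of a library it ranked between 6 and 17. The second, miR-30d-5p, had 1680, 1787 and 5091 reads with FK506 and 2972, 2691 and 2966 reads without it. These raw counts were nearly flat in untreated serum and highest in the FK506 day 14 library, which also had the most reads outside the pair. The third, miR-30e-5p, had 395, 459 and 4077 reads with FK506 and 775, 580 and 696 reads without it. The fourth, miR-30c-5p, known to repress connective tissue growth factor in rat heart cells, had 119, 170 and 744 reads with FK506 and 316, 286 and 332 reads without it. The lowest guide arm, miR-30b-5p, had 22, 40 and 214 reads with FK506 and 18, 45 and 27 reads without it. It was below miR-30a-3p in every library, and in untreated serum it was below all 3 passenger arms.

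Each neighbour in this order differed beyond the spread between libraries. The read ratio of miR-30a-5p to miR-30d-5p was 1.23 to 4.28 (mean log2 1.17 ± 0.65 SD, n = 6). For miR-30d-5p over miR-30e-5p the mean was 1.77 ± 0.72, for miR-30e-5p over miR-30c-5p 1.50 ± 0.53, and for miR-30c-5p over miR-30b-5p 2.77 ± 0.90 (log2, SD, n = 6 each). All 10 pairs of guide arms had the same sign in 6 of 6 libraries. An exact two-sided sign-flip permutation test gave p = 0.0312 for each, the smallest that 6 libraries allow, and also 0.0312 after Benjamini-Hochberg adjustment over 13 comparisons, the 3 arm comparisons included. Ligation and matching differ by sequence, so an order of read counts need not be an order of molecules.

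**Figure D1:**
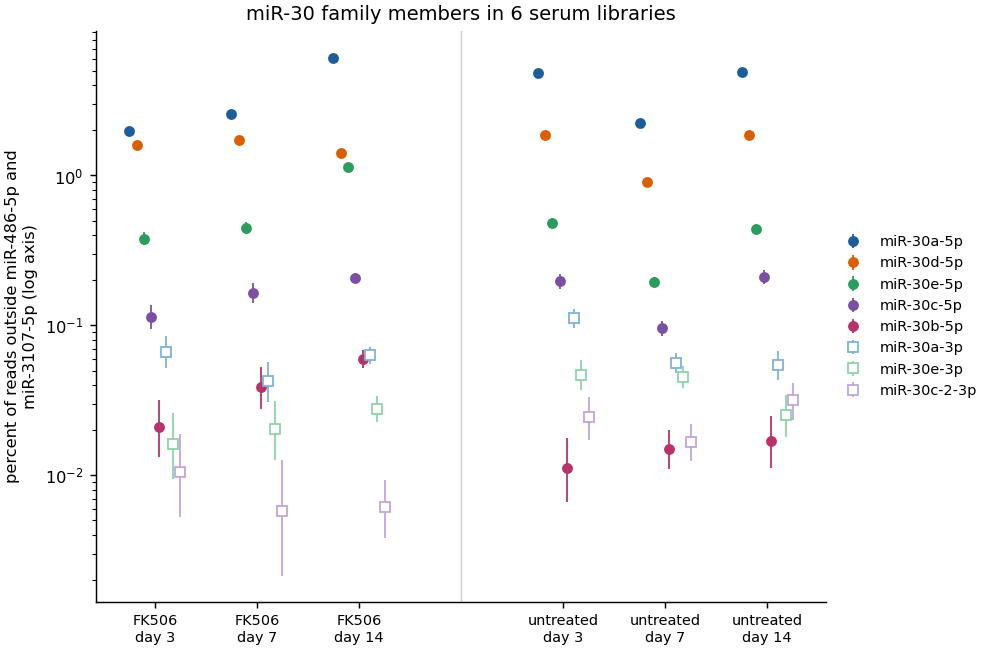
Each member's share of the reads outside miR-486-5p and miR-3107-5p (log axis) by library, with filled circles for guide arms, open squares for passenger arms and bars for exact 95% binomial intervals. The 5 guide arms keep the same order in all 6 libraries, and miR-30b-5p lies above miR-30e-3p and miR-30c-2-3p in the FK506 libraries and below them in the untreated ones.

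Passenger arms were a small part of the family. With FK506 they made up 2.23%, 1.37% and 1.08% of its reads at days 3, 7 and 14, and without it 2.42%, 3.34% and 1.47%. At each day the share was lower in FK506 serum, but the ranges of the groups overlapped. Counts of miR-30a-3p were 70, 44 and 228 with FK506 and 179, 168 and 86 without it. Those of miR-30e-3p were 17, 21 and 100 with FK506 and 75, 136 and 40 without it. Those of miR-30c-2-3p were 11, 6 and 22 with FK506 and 39, 50 and 50 without it. All counts of this last member were lower in the FK506 libraries than in the untreated ones, while for both other passenger arms the FK506 day 14 count lay above some or all untreated counts. How common such a separation of raw counts was among all miRNAs was not computed.

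The guide arm exceeded the passenger arm for all 3 hairpins in 6 of 6 libraries. The mean log2 ratio of guide to passenger reads, with 0.5 added to each count, was 5.76 ± 0.68 for miR-30a, 3.97 ± 1.12 for miR-30e and 3.56 ± 1.07 for miR-30c over miR-30c-2-3p (SD, n = 6). Each had p = 0.0312 by the exact two-sided sign-flip permutation test, the smallest possible, and the same after adjustment over the 13 comparisons.

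Treatment groups were then compared on this ratio, which needs no scaling between libraries. For miR-30e the guide arm had 23.2, 21.9 and 40.8 reads per passenger read in FK506 serum at days 3, 7 and 14, against 10.3, 4.26 and 17.4 in untreated serum. The groups did not overlap, and FK506 was higher at 3 of 3 days. The interval at day 7 was 14.1 to 35.7 with FK506 and 3.53 to 5.18 without it. At day 14 it was 33.4 to 50.2 with FK506 and 12.6 to 24.6 without it. The untreated day 14 interval thus covered the FK506 values of days 3 and 7. The log2 ratio was higher with FK506 by 1.57 ± 0.66 (SD over n = 3 days). An exact two-sided permutation test that exchanged treatments within days gave p = 0.25, the smallest that 3 days allow, and an adjusted p of 0.5 over 8 tests.

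For miR-30c the guide arm had 10.8, 28.3 and 33.8 reads per miR-30c-2-3p read in FK506 serum, against 8.10, 5.72 and 6.64 in untreated serum. These groups also did not overlap, with a log2 difference of 1.64 ± 1.10 (SD, n = 3 days, exact permutation p = 0.25, adjusted 0.5). At day 3 the interval with FK506, 5.83 to 22.3, covered the untreated value. Since miR-30c-5p comes from both Mir30c hairpins, the ratio was also taken over miR-30c-1-3p and miR-30c-2-3p summed. It was then 8.50, 18.9 and 32.3 with FK506 and 7.71, 4.85 and 6.51 without it, again with no overlap. For miR-30a the ratio was 29.6, 60.3 and 95.7 with FK506 and 43.1, 39.6 and 90.6 without it. These groups overlapped, FK506 was higher at 2 of 3 days, and the log2 difference was 0.04 ± 0.57 (SD, n = 3 days, exact permutation p = 0.75, adjusted 1).

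**Figure D2:**
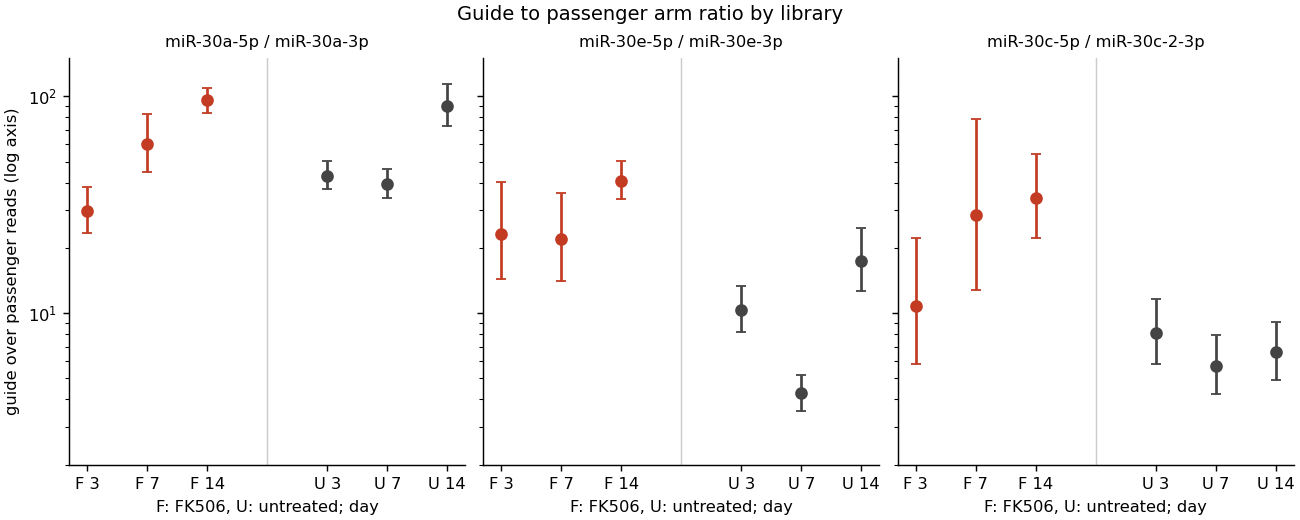
Reads of the guide arm per read of the passenger arm (log axis) in the 6 libraries for miR-30a, miR-30e and miR-30c, with exact 95% binomial intervals and FK506 in red left of untreated in grey. For miR-30e the FK506 libraries sit at 21.9 to 40.8 and the untreated ones at 4.26 to 17.4, whereas for miR-30a the groups overlap.

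The near-identity of the 3p arms bears on the miR-30e ratio. With the arms of miR-30a and miR-30e summed, guide reads per passenger read were 28.4, 47.9 and 78.9 in FK506 serum. In untreated serum they were 33.4, 23.8 and 67.3, and the groups overlapped. Most summed reads were of miR-30a, such as 2072 of 2467 guide and 70 of 87 passenger reads at FK506 day 3. The sum thus mostly follows the miR-30a ratio, whose groups already overlapped. Exchange of reads between the 3p entries was not tested. The ratio of miR-30e-3p to miR-30a-3p was 0.243, 0.477 and 0.439 with FK506 and 0.419, 0.810 and 0.465 without it. It was highest in the untreated day 7 library.

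As a background, the same ratio of the more-read to the less-read arm was taken for the 27 hairpins whose 5p and 3p entries both had a read in every library. Of these, 1 (3.7%) lay higher in FK506 than in untreated serum with no overlap, and that 1 was miR-30e. Lower with no overlap were 3 (11.1%), let-7d, miR-140 and miR-486. At all 3 days 2 of the 27 (7.41%) were higher with FK506, miR-30e and miR-25. The miR-30d pair, which rests on 1 to 13 passenger reads per library, overlapped between the groups. The miR-30c pair was not among the 27, because its arms are not named as 1 hairpin. Whether the arm ratio of miR-30e differed from that of other hairpins was not tested.

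**Figure D3:**
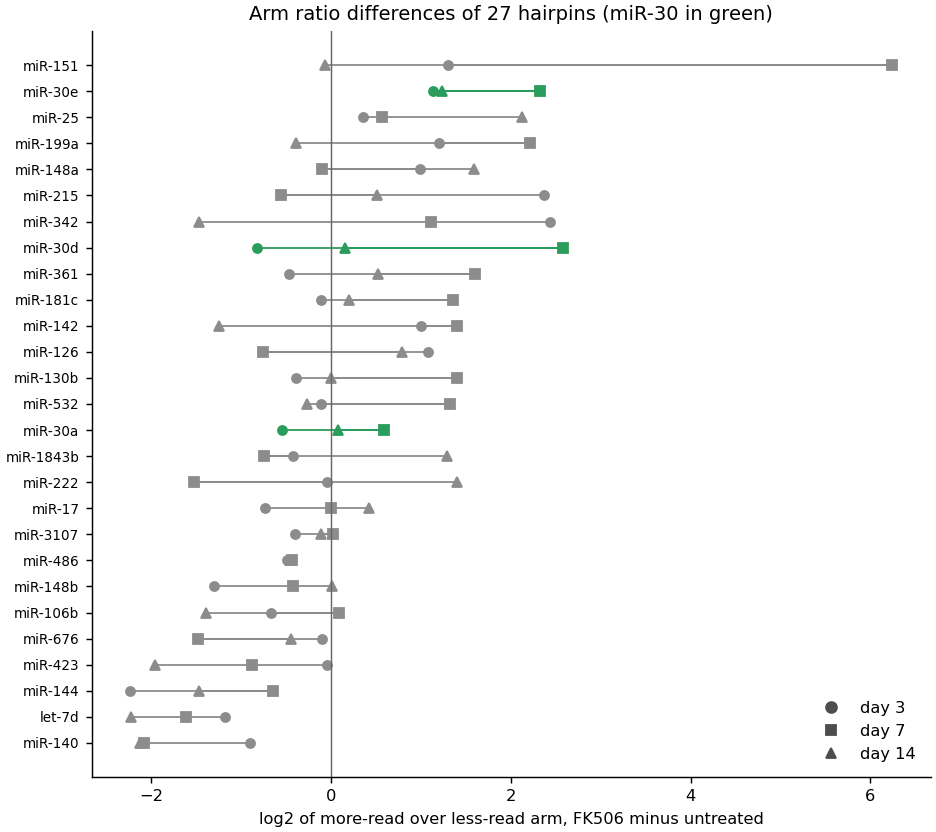
Difference in the log2 ratio of the more-read to the less-read arm, FK506 minus untreated, at each day for 27 hairpins in order of their mean over days, with circles for day 3, squares for day 7 and triangles for day 14. Of the miR-30 hairpins in green, miR-30e has all 3 days above 0, at 1.14, 2.33 and 1.24.

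For the shares of miR-30a-5p, miR-30d-5p and miR-30c-5p among the guide arms, the untreated libraries were close to each other. There miR-30a-5p made up 65.4%, 64.9% and 66.0% of the guide reads at days 3, 7 and 14, miR-30d-5p 25.2%, 26.3% and 25.1%, and miR-30c-5p 2.68%, 2.79% and 2.81%. In FK506 serum, with 1 library per day, the day 14 library differed from those of days 3 and 7. There miR-30a-5p made up 48.3%, 51.9% and 68.3%, and miR-30d-5p 39.2%, 35.0% and 15.9%. The FK506 libraries at days 3 and 7 lay on the other side of the untreated ones from the FK506 day 14 library, for both members. Reads of miR-30a-5p per read of miR-30d-5p were 1.23, 1.48 and 4.28 with FK506, and 2.60, 2.47 and 2.63 without it. The groups overlapped for the shares of miR-30a-5p, miR-30d-5p and miR-30c-5p, with exact permutation p-values of 0.5, 1 and 1.

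The share of miR-30e-5p was 9.21%, 8.99% and 12.8% of the guide reads in FK506 serum, against 6.57%, 5.66% and 5.89% in untreated serum. The groups did not overlap, and no interval of an FK506 library reached below 8.22% or of an untreated one above 7.03%. The share of miR-30b-5p was 0.513%, 0.783% and 0.670% with FK506, against 0.153%, 0.439% and 0.229% without it. These groups did not overlap either, but the interval at FK506 day 3, 0.322% to 0.776%, covered the untreated day 7 value. Within untreated serum the interval at day 7, 0.320% to 0.587%, lay above that at day 3, 0.0905% to 0.241%. The log2 share was higher with FK506 by 0.76 ± 0.32 for miR-30e-5p and 1.37 ± 0.47 for miR-30b-5p (SD, n = 3 days), each with an exact permutation p of 0.25 and 0.5 adjusted over 8 tests. So 2 of 5 guide arms lay above untreated with no overlap and 0 lay below. Over the 153 miRNAs fitted, 17% lay above on the same measure, the log2 ratio to the summed guide arms, and 3.27% below.

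**Figure D4:**
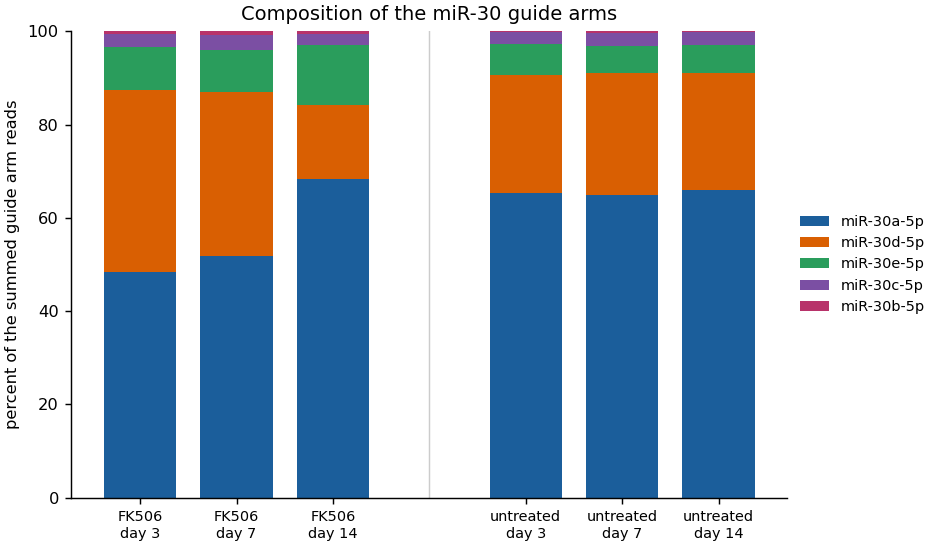
Percent of the summed reads of the 5 guide arms taken by each, as stacked bars for the 3 FK506 and the 3 untreated libraries. The miR-30a-5p part of the untreated bars is 64.9% to 66.0%, and the miR-30e-5p part is wider in the FK506 bars, at 8.99% to 12.8% against 5.66% to 6.57%.

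Of the 10 ratios between guide arms, that of the near-identical miR-30a-5p and miR-30e-5p had the smallest spread of its treatment difference over days. It was 5.25, 5.78 and 5.35 in FK506 serum at days 3, 7 and 14, against 9.96, 11.5 and 11.2 in untreated serum. The log2 ratio was lower with FK506 at 3 of 3 days, by -0.93, -0.99 and -1.06 (exact permutation p = 0.25, the smallest possible). This comparison of guide arm pairs was chosen after seeing the data. Of the 10 pairs 4 had no overlap between the groups, beside 24.5% of all pairs among the 153 fitted miRNAs.

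Levels at each day were compared after TMM scaling, with 1 library per group, so these ratios have no replicate check. To count as higher or lower, a miRNA needed a log2 ratio of 1 or more in size and 50 reads or more in either library. The log2 values hold a prior count of 2, and the folds hold none. At day 3, 6 of the 8 members reached 50 reads, with 0 higher and 2 lower in FK506 serum. Of all 99 miRNAs compared, 21.2% were higher and 11.1% lower. The 2 were miR-30a-5p, at -1.25 on the log2 scale (2.38-fold lower, interval 2.27 to 2.50), and miR-30e-3p, at -1.43 (2.82-fold lower, 1.65 to 5.09), which was compared only through its 75 untreated reads. Both stayed past the threshold with library totals, reads outside the pair and median-of-ratios factors. The median over the 6 members was -0.73, beside 0.04 over the 99 miRNAs.

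At day 7, 7 members were compared, with 0 higher and 3 lower in FK506 serum. Over 129 miRNAs 19.4% were higher and 46.5% lower. The 3 were the passenger arms, with miR-30a-3p at -1.45, miR-30e-3p at -2.17 and miR-30c-2-3p at -2.36. Each reached 50 reads only in the untreated library, where it was high. The guide arms compared lay between -0.87 for miR-30a-5p and 0.12 for miR-30e-5p. Scaled to reads outside the pair, miR-30e-3p and miR-30c-2-3p were at -1.12 and -1.38, miR-30a-3p was at -0.39, and miR-30e-5p was at 1.19. The sum of the family was -0.57 with TMM and 0.50 with that scaling, so its direction at day 7 flips. In the untreated library of this pair the neuron and glia list was raised, and the part of that in these ratios was not tested.

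At day 14 all 8 members were compared, with 2 higher and 1 lower in FK506 serum. Over 130 miRNAs 20.8% were higher and 15.4% lower. Higher were miR-30e-5p, at 1.11 (2.16-fold, 1.99 to 2.34), and miR-30b-5p, at 1.49 (2.92-fold, 1.95 to 4.53). Lower was miR-30c-2-3p, at -2.42 (6.17-fold lower, 3.67 to 10.7). Of these, miR-30b-5p was compared only through its 214 FK506 reads and miR-30c-2-3p only through its 50 untreated reads. All 3 calls stood under each of the other scalings. The most abundant member, miR-30a-5p, was at 0.04, and at 1.37 scaled to the library total. The FK506 day 14 library had an effective size of 2.08 times its filtered total, so the choice of scaling moves all its ratios together.

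**Figure D5:**
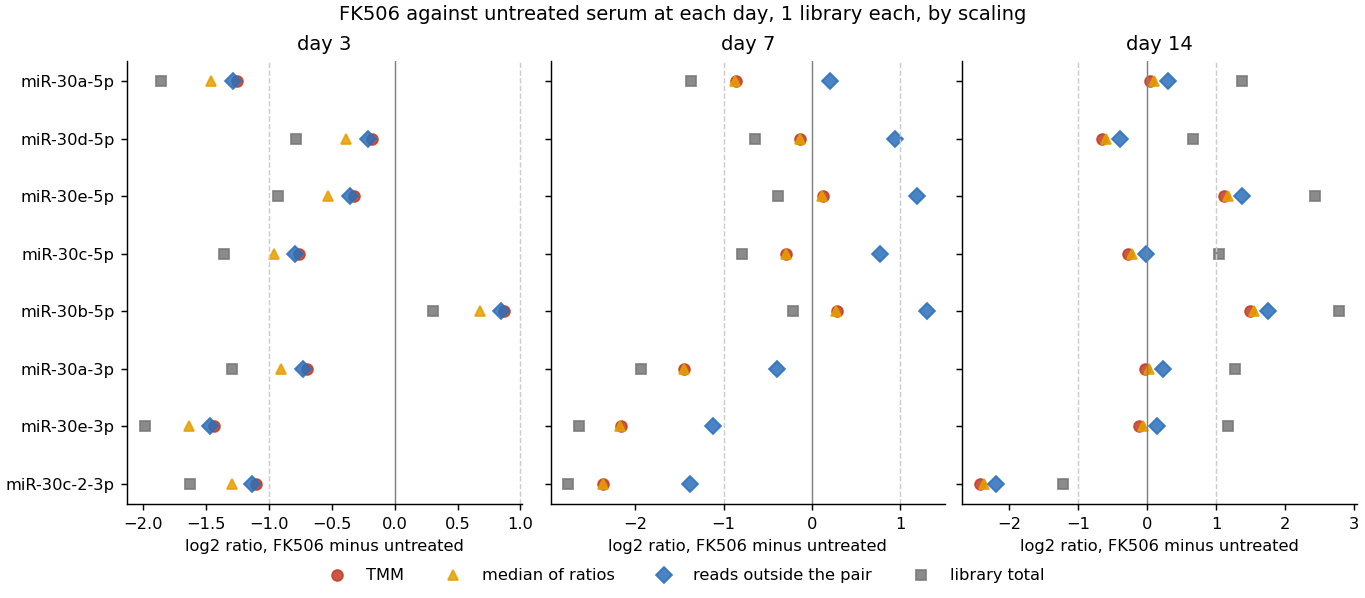
The log2 ratio of FK506 to untreated serum for each member at days 3, 7 and 14 under 4 scalings, with dashed lines at -1 and 1. The marks of all members shift together between scalings, most widely at days 7 and 14. Those of miR-30c-2-3p lie below -1 at every day and under every scaling, with fewer than 50 reads in both libraries at day 3.

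Across the 3 days, the quasi-likelihood test of edgeR, fitted with terms for treatment and day, called 0 of 153 miRNAs (0%) at an adjusted p of 0.05, and 0 of the 8 members. Unadjusted p-values under 0.05 numbered 17 in all, of which 9 (5.88%) were lower, and 1 was a member. DESeq2 called 5 and limma 1, none of them a member. The member was miR-30c-2-3p, with a log2 change of -2.13 ± 0.77 (SE) and an adjusted p of 0.313 in edgeR. It was lower at each of the 3 days, and its unadjusted edgeR value was 0.0164. Its adjusted p ran from 0.0859 to 0.817 over all the fits. Its TMM-scaled level was 3.16, 1.60 and 1.82 CPM in FK506 serum at days 3, 7 and 14, against 7.17, 9.67 and 11.2 CPM in untreated serum, with no overlap. The FK506 values rest on 11, 6 and 22 reads. How many of the 153 miRNAs lack overlap on this measure was not computed.

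The next members were miR-30e-3p at -1.28 ± 0.70 (edgeR, SE, adjusted p 0.520, lower at 3 of 3 days) and miR-30b-5p at 0.92 ± 0.67 (adjusted p 0.670, higher at 3 of 3 days). The other log2 changes were -0.73 for miR-30a-3p, -0.69 for miR-30a-5p, -0.44 for miR-30c-5p, -0.32 for miR-30d-5p and 0.30 for miR-30e-5p, with adjusted p-values of 0.802 to 0.914 in edgeR. In all, 6 of 8 members had negative values, beside 72 of 153 miRNAs, and the median was -0.57, beside 0.09. Scaled to reads outside the pair the medians were -0.13 and 0.49. The direction of miR-30d-5p turned positive under that scaling. With 1 library left out, miR-30a-5p ran from -1.15 without FK506 day 14 to -0.21 without FK506 day 3, and miR-30c-5p from -0.62 to -0.08 without the same libraries. On the same scale miR-30d-5p ran from -0.44 without FK506 day 7 to -0.07 without untreated day 14. For miR-30a-3p and miR-30e-3p the values were -1.18 and -1.96 without FK506 day 14, and -0.38 and -0.78 without untreated day 7. For miR-30b-5p the range was 0.51 without FK506 day 14 to 1.26 without untreated day 7, and miR-30e-5p changed sign.

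In untreated serum no member passed the size rule over time. At day 7 against day 3, 0 of 7 members compared were past the size rule, while 47.7% of 128 miRNAs were higher and 14.1% lower. At day 14 against day 3, 0 of 7 were, beside 10.8% higher and 6.86% lower of 102. The summed family was at -0.11 and 0.28 on the log2 scale at these days. Scaled to reads outside the pair, the day 7 value was -1.09 and 4 members were lower. The share of all miRNAs that were lower with that scaling was not computed. In FK506 serum at day 7 against day 3, 0 of 5 members were past the rule, beside 3.23% higher and 6.45% lower of 93.

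By day 14 in FK506 serum 3 of 7 members compared were higher and 0 lower, beside 10.2% and 16.4% of 128 miRNAs. These were miR-30a-5p (3.03-fold, 2.90 to 3.17), miR-30e-5p (2.97-fold, 2.68 to 3.30) and miR-30b-5p (2.80-fold, 1.80 to 4.56), the last compared only through its day 14 reads. Beside them miR-30c-5p was at 0.84, miR-30d-5p at -0.20 and miR-30a-3p at -0.09. The hairpins of miR-30a-5p and miR-30e-5p lie on different chromosomes, 1 and 4. Between the same libraries the liver list, miR-122-5p and miR-192-5p, was at 692 TMM-scaled CPM at day 14 and 370 at day 3. Nearly all its reads were miR-192-5p, 8363 of 8364 at day 14 and 1256 of 1286 at day 3. In untreated serum the list was at 1252 CPM at day 14 and 300 at day 3. The part of this list in the ratios was not tested. Scaled to the library total 7 members were higher at FK506 day 14. The share of all miRNAs that were higher with that scaling was not computed. In the edgeR fit over both treatments, the median day 14 log2 change over 153 miRNAs was 0.84 with that scaling and 0.06 with TMM. Over both treatments together, edgeR called 0 of 153 miRNAs (0%) at day 7 relative to day 3, where 7 had an unadjusted p under 0.05. It also called 0 (0%) at day 14, where 0 did, and no member was among the 7. DESeq2 and limma called 0 in each.

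Likeness to the summed guide arms was measured over the 6 libraries as the root mean square difference of TMM-scaled log2 levels, each centred on its own mean. Of 70 miRNAs outside the family with at least 50 reads in every library, the nearest were miR-186-5p (0.26), miR-15a-5p (0.29), miR-22-3p (0.38), miR-140-3p (0.39) and miR-21a-5p (0.40), beside a median of 0.82. Within the family miR-30c-5p (0.15) and miR-30a-5p (0.19) were nearest to the sum of which they are part. The passenger arm miR-30c-2-3p (0.93) and miR-30b-5p (0.81) were farthest from it.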

How the data were processed

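The authors deposited whole-number read counts per mature miRNA for 6 serum libraries, with no normalization. Per the labels' protocols, 15 to 30 nt RNA was taken from gels, libraries were made with a TruSeq kit, and trimmed reads of at least 15 nt were matched to mouse entries of miRBase 20 with Bowtie and BLAST. Versions, a genome build and the treatment of multiply matching reads were not given in the sources used here, so near-identical members are uncertain. Bowtie also appears in the submitters' processing notes.

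From these counts, TMM sizes over the 153 miRNAs kept by filterByExpr (minimum count 10) and the quasi-likelihood fits were computed with edgeR 4.0.16 in R 4.3.3, with Benjamini-Hochberg adjustment over all miRNAs fitted and 2 residual degrees of freedom. These p-values measure only the spread between libraries, which may be technical. Log2 ratios between single libraries used a prior count of 2. Ratios of arms and members were formed within a library with 0.5 added to each count, and tested by exact permutation. DESeq2 1.42.0, limma 3.58.1, other scalings and left-out libraries were alternatives. Sequences and their coordinates are from RefSeq (GRCm38.p6), and gene context is from GENCODE vM21.

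Named are all 8 members, the other arms of their hairpins and entries that share a member's seed, and the 5 miRNAs most alike. Of other miRNAs, miR-25, let-7d, miR-140 and miR-486 as hairpins were named after their values were seen. So were miR-181a-5p and the list members let-7a-5p, let-7b-5p, let-7c-5p, let-7f-5p, let-7g-5p, let-7i-5p, miR-133a-3p, miR-142-5p, miR-192-5p and let-7d-5p. The members, lists and tests were chosen with earlier results of these data known. The marker lists were red cell, neuron and glia, liver, muscle, platelet and myeloid, and let-7.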

Additional observations from a re-analysis of the deposited data

Results flagged for a closer look

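Reads appeared at 2 entries of the miR-30 hairpins outside the comparisons above. The passenger arm miR-30d-3p had 6, 1 and 8 reads in FK506 serum at days 3, 7 and 14, and 6, 13 and 5 reads in untreated serum. Its highest count, 13, is above the 3 reads that a count of 0 allows. The arm miR-30c-1-3p, from the Mir30c hairpin in Nfyc, had 3, 3 and 1 reads with FK506 and 2, 9 and 1 reads without it, so its highest count was 9. Both peaks lay in the untreated day 7 library. The miR-30d-3p reads enter only the plot of arm ratio differences of 27 hairpins, and those of miR-30c-1-3p only the ratio over both miR-30c 3p arms.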

How the results depend on the processing

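No paired analysis was possible because each group holds 1 library, so replicate numbers pair nothing, and the libraries were matched by day only, as a term of the fit and in the exchange of treatments within days. The depth outside the dominant pair limits the passenger arms most, with 6 to 50 reads for miR-30c-2-3p. The count of miRNAs called across days (0) became 3 scaled to reads outside the pair, 4 without a low-count filter, 5 with DESeq2, 1 with limma and 2 without a day term. It ran from 0 to 3 with 1 library left out, at 3 without FK506 day 14 and 1 without untreated day 14. No member was called in any of these fits. For day 7 against day 3 the count of 0 became 1 scaled to reads outside the pair and 9 without a filter. The change of miR-30d-5p reversed to 0.11 scaled to reads outside the pair, and that of miR-30e-5p to -0.20 without FK506 day 14 and -0.02 without untreated day 14 (range with 1 library left out -0.20 to 0.82). The cause of these changes was not tested.

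The log2 ratio of the summed family, FK506 against untreated, was -0.82, -0.57 and -0.01 at days 3, 7 and 14. With median-of-ratios factors it was -1.02 at day 3 and 0.047 at day 14. By library total it was -1.42, -1.08 and 1.31 at the 3 days, and by reads outside the pair it was 0.50 at day 7 and 0.25 at day 14. By library total 4 members were lower at day 3 and 6 higher at day 14, and by reads outside the pair 1 was higher at day 7. For the member counts in this paragraph the share of all miRNAs was not computed. A change of scaling moves all miRNAs of a library together. Within FK506, the summed family at day 7 against day 3 (0.13) was 0.22 by library total and 0.26 by reads outside the pair, while at day 14 (1.08) the library total gave 2.66, with 7 members higher. Within untreated serum at day 7 (-0.11) it was -0.29 with median-of-ratios factors and -1.09 scaled to reads outside the pair, with 4 members lower. A minimum of 20 reads gave 1 higher. At day 14 (0.28) it was 0.055 with median-of-ratios factors, -0.073 by library total and 0.0033 by reads outside the pair, with 1 member lower under each of the last 2.

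With 1 library left out, the mean log2 guide to passenger ratio ran from 5.60 to 5.94 for miR-30a, 3.69 to 4.34 for miR-30e and 3.26 to 3.77 for miR-30c. With 1 day left out, the treatment differences of the miR-30e and miR-30c arm ratios and of the miR-30e-5p and miR-30b-5p shares kept their sign. That of the miR-30a arm ratio ran from -0.23 without day 7 to 0.34. Those of the shares ran from -0.12 without day 3 to 0.53 for miR-30d-5p (-0.0094 without day 7), and from -0.11 without day 7 to 0.16 for miR-30c-5p (-0.0082 without day 3). An exact two-sided permutation test over all 20 splits, chosen after seeing the data, gave p = 0.1, the smallest possible, for the 4 measures with no overlap. With guide arms only, the family share was 8.90% at FK506 day 14, and 7.37% and 3.44% at untreated days 3 and 7. Without miR-181a-5p it was 9.19% at FK506 day 14, and 7.94%, 5.21% and 7.84% in untreated serum.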

Other observations

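The entries miR-30b-3p, miR-30f and miR-384-5p had 0 reads in all 6 libraries, and a count of 0 allows up to 3 reads in a library. Of these, miR-384-5p carries the guide seed GUAAACA. Among entries with a matched mature sequence, no guide-seed entry outside the family was thus detected at this depth. Entries without a matched sequence were not screened for the seed. The gene of miR-30f is annotated on the plus strand over the Mir30e hairpin, with the seed UAAACAU.

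The red cell list, apart from miR-486-5p, took 0.859%, 0.828% and 1.16% of the reads outside the pair at days 3, 7 and 14 with FK506, and 0.953%, 0.209% and 0.589% without it. Its lowest share was in the untreated day 7 library.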
